A study of Mus musculus with 5 samples.

Results

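The receptors described here are 10 members of the nuclear receptor family that act in the liver: Nr1i3 (CAR), Nr1i2 (PXR), Rxra, Hnf4a, Esrra, Nr5a2, Nr2f2, Nr2f6, Esr1 and Thrb. They were taken as a list of symbols, and 10 of 10 were found once each among the 32285 genes of the deposited count table. Their mRNA was followed in hepatocytes, the main cell of the liver, at 5 times between feeding and 24 h without food. The animals were male C57BL/6J mice of wild-type genotype on a normal chow diet, and each time was 1 droplet library of isolated hepatocytes. For 3 days they had been trained to fast for 16 h overnight and to eat for 8 h by day, and on the last day chow and water with 20% sucrose were given. The fed animals were taken after 4 h of that meal, at clock hour 13. The others had food and sucrose water removed and were taken 4, 8, 16 or 24 h later, at clock hours 17, 21, 5 and 13. Hours without food and hour of day therefore cannot be told apart, except between the fed and the 24 h library, which share the clock hour. Neither the number of animals pooled into a library nor their age is stated in the sources used here.

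Nuclear receptors are transcription factors with a DNA-binding domain and, in most members, a pocket for a small lipophilic ligand. HNF4A keeps hepatocytes differentiated and holds up a broad hepatic programme, and RXRA is the obligate partner with which CAR, PXR, the thyroid hormone receptor THRB, PPARA and the bile acid and oxysterol receptors bind DNA. CAR and PXR sense drugs and other foreign compounds and induce cytochrome P450 enzymes. ESRRA, an orphan receptor, works with the coactivator PGC-1 alpha (Ppargc1a) on mitochondrial genes, NR5A2 (LRH-1) acts on bile acid and cholesterol genes, and NR2F2 and NR2F6 are COUP-family receptors that often repress. In the liver lobule, blood runs from the portal to the central vein, and many hepatocyte genes are graded along that path.

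Levels are given as CPM, the UMIs (molecule tags) of a gene per 1000000 nuclear-encoded UMIs, summed over the hepatocytes of a library. Of 50000 barcodes, 28810 had 1000 or more UMIs, 500 or more genes and 2 to 30% mitochondrial UMIs. Of these, 24545 fell in the clusters counted as hepatocytes and entered the sums. Another 3 clusters also carried the 7 hepatocyte markers but were left out as shallow. They held 13.3% of the barcodes past the filter in the fed library, and 25.0%, 1.25%, 0.362% and 32.8% in the fasted ones in time order. Total UMIs per library ran from 40002260 to 68330252. The median UMIs per hepatocyte were 6238.5 in the fed library and 16680, 15235, 4413.5 and 13281 in the fasted ones in time order, so the fed and 16 h libraries were the shallow ones. The 7 hepatocyte markers were detected in every library and summed to between 83184 and 108818 CPM. The 9 sinusoidal endothelial markers summed to between 3.42 and 9.61 CPM, and the 8 Kupffer cell markers to between 0.0594 and 3.93 CPM. Stellate, T or NK, B and neutrophil markers summed to between 0.0301 and 4.19 CPM. Higher sums came from 3 other lists. The 5 cholangiocyte markers stood at 77.6 CPM when fed and at 48.2, 34.8, 76.1 and 20.2 CPM in the fasted libraries, with up to 3 of them at 0. The 6 monocyte or dendritic markers summed to between 154 and 195 CPM with up to 4 at 0, and the 5 erythroid markers to between 24.4 and 67.2 CPM with up to 4 at 0. The part of these lists in the receptor levels was not tested. The summed acute-phase transcripts, a sign of inflammation, stood at 8137 CPM when fed and at 9304, 5717, 21770 and 6077 CPM in the fasted libraries, and 10 immediate-early and heat-shock transcripts stood at 454, 364, 187, 587 and 188 CPM. Of 24490 distinct hepatocyte barcode sequences, 55 occurred in more than 1 library. With 1 library per time there is no test across animals, and every 95% interval below covers counting error only, so that a difference describes those libraries. UMIs of the 3' method are counted once per transcript end and so were not scaled by length. Levels are compared within a gene.

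Hnf4a and Rxra, the identity factor and the shared partner, were highest in the 8 h library and lowest in the fed and 16 h libraries. Hnf4a (chr2:163506808-163572910 on the plus strand, GRCm38) stood at 289.9 CPM (284 to 296) in the fed library, 442 CPM (435 to 448) at 4 h, 574 CPM (566 to 583) at 8 h, 263 CPM (258 to 269) at 16 h and 361 CPM (354 to 367) at 24 h, with 95% Poisson intervals in brackets. Rxra (chr2:27676440-27762957 on the plus strand) stood at 155 CPM (151 to 159.6) in the fed library, 207 CPM (203 to 211) at 4 h, 253 CPM (248 to 259) at 8 h, 139 CPM (135 to 143) at 16 h and 223 CPM (218 to 228) at 24 h. For both genes every neighbouring pair in the order of the 5 libraries differed by more than counting error. On the log2 scale the Hnf4a difference from fed was 0.61 (0.57 to 0.64) in the 4 h, 0.99 (0.95 to 1.02) in the 8 h, -0.14 (-0.18 to -0.10) in the 16 h and 0.32 (0.28 to 0.35) in the 24 h library, where the brackets are exact conditional binomial intervals. Rxra differed by 0.41, 0.70, -0.16 and 0.52 at the same times. Neither reached 2-fold against fed at any time, although Hnf4a came close at 8 h with 1.98-fold and passed it under TMM scaling with a log2 ratio of 1.16. The 3 libraries in which both were higher than fed were also the 3 with the most UMIs per cell.

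Depth moved with these levels inside libraries as well. When the hepatocytes of a library were split at their median of nuclear-encoded UMIs, Hnf4a was higher in the deeper cells in 5 of 5 libraries, by log2 0.06 to 0.45. In the fed library it stood at 241 CPM in the shallower and 314 CPM in the deeper cells, and at 24 h at 289 and 393 CPM. Rxra was higher in the deeper cells in 4 of 5 libraries, by up to log2 0.39. An alternative chosen after seeing the data kept only the cells of 5000 to 10000 nuclear-encoded UMIs in every library, called matched depth below. It held 3544 of 6478 fed hepatocytes, and 625 of 3406, 407 of 2667, 1738 of 8986 and 890 of 3008 fasted ones in time order. Such cells were shallower than the library median at 4, 8 and 24 h (13416, 13691 and 10956.5 UMIs) and deeper than it at 16 h (3771.5). The Hnf4a log2 ratio to fed became 0.20 for the 4 h, 0.81 for the 8 h and -0.14 for the 24 h library. That of Rxra became 0.08, 0.56 and 0.11. The 8 h difference was thus kept for both at matched depth, the 24 h difference of Hnf4a turned its sign, and the 4 h differences of both and the 24 h difference of Rxra shrank by more than 1.5 times. The median log2 ratio over all genes was -0.19, -0.12, -0.01 and -0.27 there in time order. Over all hepatocytes it was -0.08, -0.08, -0.02 and -0.06. Matched-depth ratios to fed, here and below, carry that shift, and Hnf4a at 24 h stood above the median gene.

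**Figure D1:**
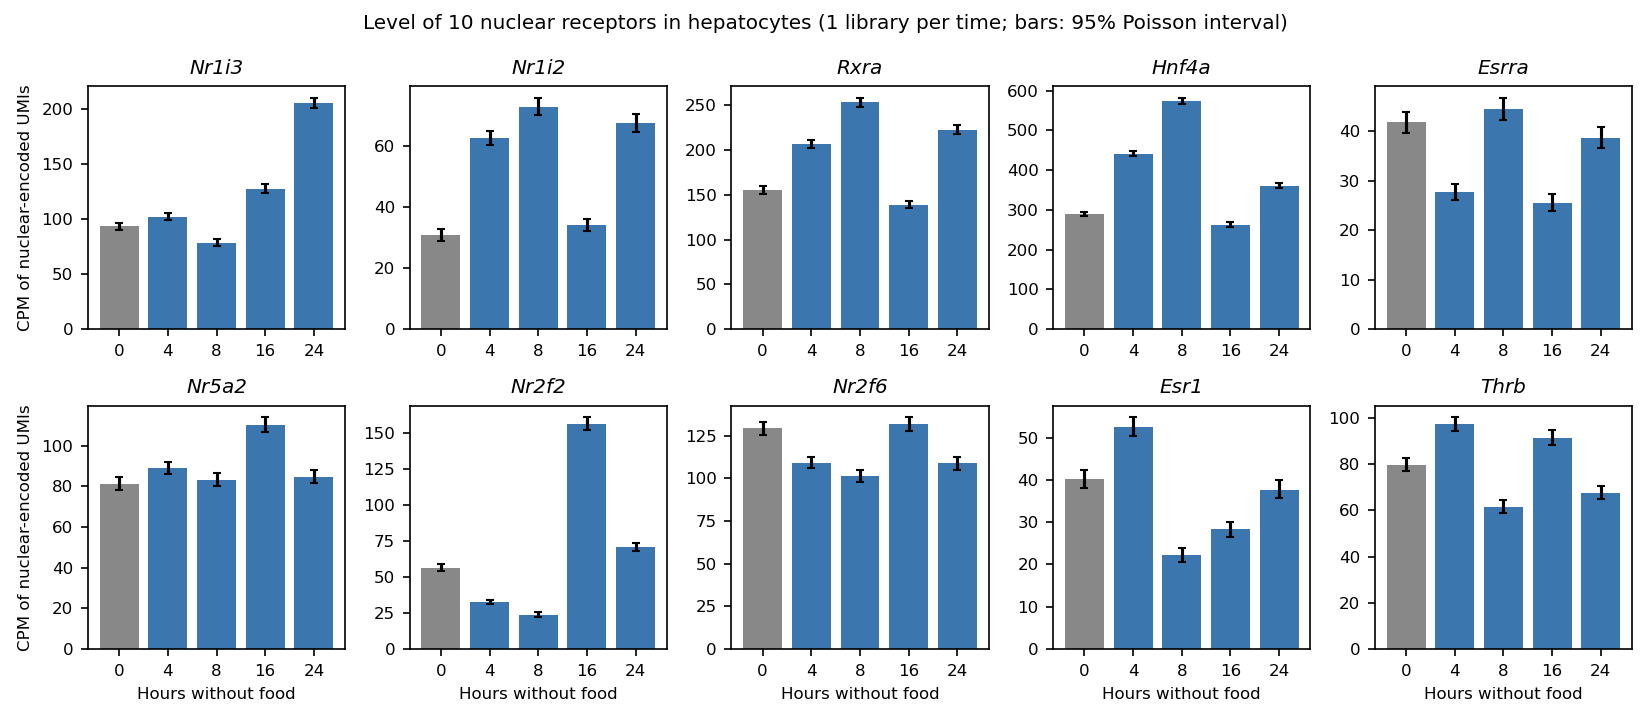
Level of the 10 receptors in the hepatocytes of each library, in CPM of nuclear-encoded UMIs against hours without food. Each bar is 1 library, the grey bar is the fed one and the error bars are 95% Poisson intervals. Hnf4a, Rxra and Nr1i2 are low at 0 and 16 h, Nr2f2 is highest at 16 h with 156 CPM, and Nr1i3 is highest at 24 h with 205 CPM.

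**Figure D2:**
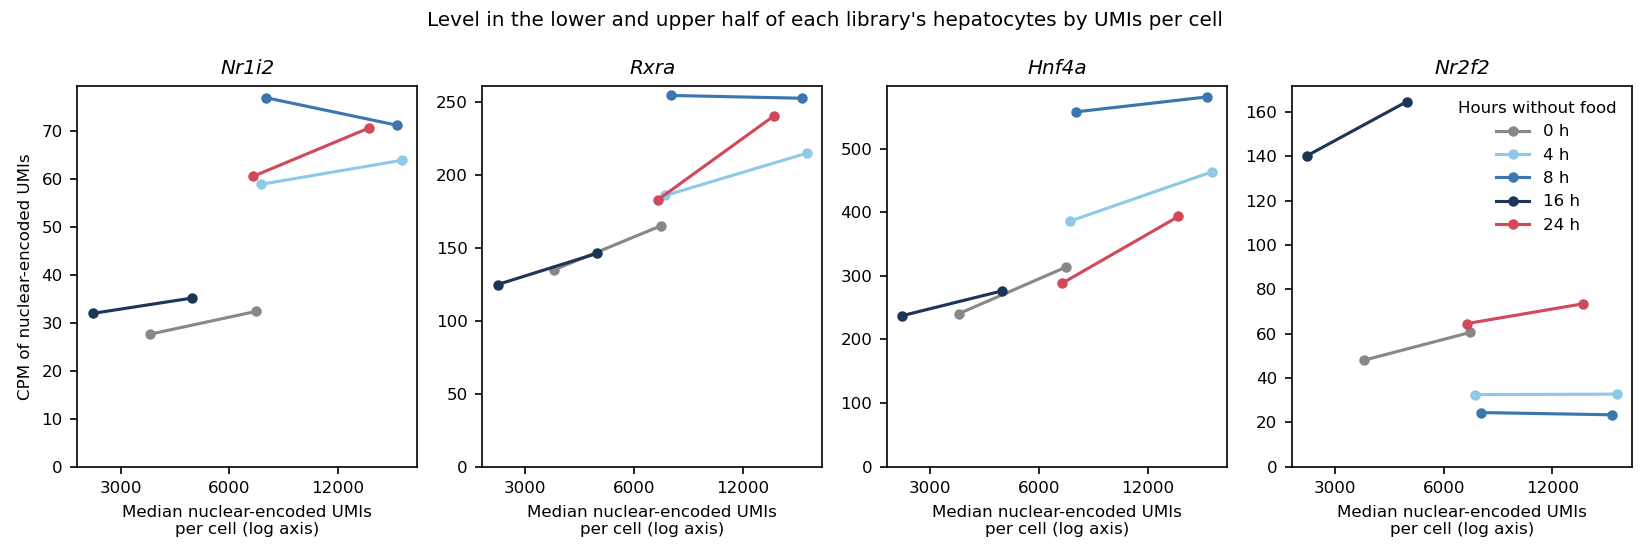
Level of 4 receptors in the shallower and the deeper cells of each library, split at the library's median of nuclear-encoded UMIs per cell (the x axis, on a log scale, gives the median of each set). Each line is 1 library and joins its 2 sets of cells. Hnf4a lines slope upward in 5 of 5 libraries, and the 16 h library has the highest Nr2f2 level in both sets, 140.3 and 165 CPM.

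The 2 xenobiotic receptors followed different courses, and both were more than 2-fold above fed at 24 h. Nr1i3 (chr1:171213970-171220701 on the plus strand) stood at 93.4 CPM (90.2 to 96.7) in the fed library, 102 CPM (99.3 to 105) at 4 h, 78.7 CPM (75.7 to 81.7) at 8 h, 127 CPM (124 to 131) at 16 h and 205 CPM (200.4 to 210.3) at 24 h. It was lowest at 8 h and highest at 24 h, and all neighbours in that order differed beyond counting error. Its 24 h level was 2.20-fold the fed level, a log2 difference of 1.14 (1.08 to 1.20), against 0.45 at 16 h and -0.25 at 8 h. It was lower in the deeper cells in 4 of 5 libraries, against the direction of Hnf4a. In cells of 5000 to 10000 UMIs the differences from fed were 0.35, 0.09, 0.82 and 1.46 in time order, so that the fed library and not the 8 h one was lowest there. The 24 h difference stayed past 2-fold, and over the 12 alternatives it ran from 1.04 to 1.46. Nr1i2 (chr16:38248323-38294824 on the minus strand) stood at 30.8 CPM (29.0 to 32.7) in the fed library, 62.5 CPM (60.1 to 64.9) at 4 h, 72.8 CPM (70.0 to 75.8) at 8 h, 34.1 CPM (32.1 to 36.1) at 16 h and 67.5 CPM (64.7 to 70.3) at 24 h. The fed and 16 h libraries were low and the other 3 high, with folds to fed of 2.03 for the 4 h, 2.36 for the 8 h and 2.19 for the 24 h library. The log2 differences were 1.02 (0.92 to 1.12), 1.24 (1.14 to 1.35) and 1.13 (1.02 to 1.24). In cells of matched depth they were 0.72, 1.23 and 0.85, so that only the 8 h difference stayed past 2-fold. Nr1i2 was also below 2-fold at 4 h with all UMIs in the denominator and at 24 h when barcodes with almost no mitochondrial UMIs were counted.

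The share of hepatocytes with at least 1 Nr1i3 UMI followed the summed level once every cell was thinned to 1000 nuclear-encoded UMIs. It was 9.39% (8.69 to 10.1%) in the fed library, 11.5% (10.8 to 12.2%) at 16 h and 19.2% (17.8 to 20.7%) at 24 h, with exact Clopper-Pearson intervals, after 112.0 cells too shallow for this were left out at 16 h and 0 in the other 2 libraries. Unthinned shares were 35.1%, 33.3% and 78.8%. In endothelial-like cells, which should lack it, the thinned share was 7.56% (4.46 to 11.8%) when fed and 7.14% (1.498 to 19.5%) at 24 h, over 225 and 42 cells. The fed hepatocyte share thus lay inside the interval of that background, and the 24 h share lay above its estimate but under its upper bound. Median depths were 5467 and 10956.5 nuclear-encoded UMIs in the hepatocytes, and 1933 and 5146 in the endothelial-like cells. Barcodes with under 2% mitochondrial UMIs, which the filter left out, held Nr1i3 at 104 CPM in 2172 fed and 177 CPM in 5400 24 h barcodes.

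The windows just upstream of these receptors' annotated starts are shown because Nr1i2 and Rxra had the most similar course of any pair of the 10, Nr2f2 had the widest range, and Nr1i3 was the member with the steepest grade along the lobule. Each is the 250 bases before a start in the RefSeq promoter table of GRCm38.p6, 5′ to 3′, and Rxra has 2 starts there. Both strands were searched, and capitals mark matches to the receptor core AGGTCA, to the E-box CACGTG, to the CCAAT box, to the TATA box as TATAAA, to the cyclic AMP element TGACGTCA or to the D-box TTATGTAA.
Nr1i3, chr1:171213720-171213969, plus strand: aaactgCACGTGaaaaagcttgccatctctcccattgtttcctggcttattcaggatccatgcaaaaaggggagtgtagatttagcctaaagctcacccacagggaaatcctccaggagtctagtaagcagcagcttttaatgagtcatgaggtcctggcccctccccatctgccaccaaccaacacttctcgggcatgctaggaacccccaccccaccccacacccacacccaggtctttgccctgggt
Nr1i2, chr16:38294825-38295074, minus strand: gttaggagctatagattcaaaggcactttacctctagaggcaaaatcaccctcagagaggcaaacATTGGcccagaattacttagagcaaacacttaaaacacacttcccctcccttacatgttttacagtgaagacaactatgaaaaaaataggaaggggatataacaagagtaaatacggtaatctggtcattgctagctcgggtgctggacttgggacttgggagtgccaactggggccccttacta
Rxra first start, chr2:27676951-27677200, plus strand: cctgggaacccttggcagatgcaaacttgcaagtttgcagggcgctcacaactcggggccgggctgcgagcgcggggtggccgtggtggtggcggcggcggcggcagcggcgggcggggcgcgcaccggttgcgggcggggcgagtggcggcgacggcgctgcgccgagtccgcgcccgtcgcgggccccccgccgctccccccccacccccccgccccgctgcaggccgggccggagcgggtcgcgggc
Rxra second start, chr2:27709042-27709291, plus strand: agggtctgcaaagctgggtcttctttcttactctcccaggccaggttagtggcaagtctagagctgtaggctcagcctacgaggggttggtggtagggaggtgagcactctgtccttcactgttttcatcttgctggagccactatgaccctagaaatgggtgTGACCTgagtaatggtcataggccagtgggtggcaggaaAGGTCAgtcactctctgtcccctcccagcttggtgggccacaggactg
Nr2f2, chr7:70366747-70366996, minus strand: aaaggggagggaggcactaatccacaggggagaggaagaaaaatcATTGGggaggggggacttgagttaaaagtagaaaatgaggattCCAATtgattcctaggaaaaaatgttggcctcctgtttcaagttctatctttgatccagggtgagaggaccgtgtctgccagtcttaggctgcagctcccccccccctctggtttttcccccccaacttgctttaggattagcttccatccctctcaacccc
The Nr1i3 window holds 1 E-box, near the far end of the window. The Nr1i2 window holds 1 CCAAT match and the Nr2f2 window 2, and the latter overlaps an exon of the antisense gene B130024G19Rik. The second Rxra window holds 2 AGGTCA cores, and the first holds none of the marked letters, with a GC content of 81.2% against a median of 52.4% over all 32851 windows. Of all windows of the same length 14.02% held the receptor core, 6.02% the E-box, 33.8% the CCAAT box, 12.4% TATAAA, 1.55% the cyclic AMP element and 0.819% the D-box. Of the 10 members 3, 2, 5, 2, 0 and 0 held these motifs at any of their 15 listed starts. A match is a description of letters, and the counts do not show which start was in use.

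The COUP-family receptor Nr2f2 had the widest range of the 10, 6.60-fold from its lowest to its highest library. Nr2f2 (chr7:70351944-70366735 on the minus strand) stood at 56.5 CPM (54.0 to 59.0) in the fed library, 32.7 CPM (31.0 to 34.4) at 4 h, 23.7 CPM (22.1 to 25.4) at 8 h, 156 CPM (152 to 161) at 16 h and 70.7 CPM (67.9 to 73.7) at 24 h. It was lower than fed at 4 and 8 h and higher at 16 and 24 h, and every neighbouring pair in its order differed beyond counting error. The log2 difference from fed was -0.79 (-0.89 to -0.69) in the 4 h, -1.25 (-1.37 to -1.13) in the 8 h, 1.47 (1.39 to 1.54) in the 16 h and 0.32 (0.24 to 0.41) in the 24 h library. The 8 and 16 h differences passed 2-fold, as the 4 h one did, with -1.21, among barcodes of 2 to 15% mitochondrial UMIs. At matched depth the 8 and 16 h differences were -1.26 and 1.48. The 24 h difference was 0.08 at matched depth and turned to -0.09 when barcodes with almost no mitochondrial UMIs were counted. The 16 h library also had the highest summed acute-phase level. When its hepatocytes were split at the median of their acute-phase share, Nr2f2 stood at 158 CPM in the lower and 155 CPM in the upper set. Among barcodes with under 2% mitochondrial UMIs, which were left out, the 16 h level was 68.6 CPM in 234 barcodes and the fed level 67.3 CPM in 2172.

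Nr2f2 is also a gene of endothelial cells, and the cluster with endothelial markers carried more of it than the hepatocytes did, with 294 CPM in 225 fed cells and 229 CPM in 98 cells at 16 h. The endothelial markers in hepatocytes summed to 9.61 CPM when fed and 7.68 CPM at 16 h. Their part in the hepatocyte values was not tested. Counted in cells thinned to 1000 nuclear-encoded UMIs, 5.12% (4.60 to 5.69%) of fed hepatocytes and 14.01% (13.3 to 14.7%) of 16 h hepatocytes held an Nr2f2 UMI (exact Clopper-Pearson intervals), against 25.2% and 40.9% unthinned. 0.0 fed and 112.0 16 h hepatocytes were too shallow for this and left out. The same shares in endothelial-like cells were 33.8% and 32.3%, with median depths of 1933 and 2496 nuclear-encoded UMIs against 5467 and 3771.5 in hepatocytes. For Hnf4a, which endothelial cells should lack, the endothelial-like share was 15.6% when fed against 23.5% in hepatocytes, so hepatocyte transcripts were present in those cells.

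Nr2f6 (chr8:71374123-71381960 on the minus strand) kept within a narrower band. It stood at 129 CPM (126 to 133) in the fed library, 109 CPM (106 to 112) at 4 h, 101 CPM (98.0 to 105) at 8 h, 132 CPM (128 to 136) at 16 h and 109 CPM (105 to 112) at 24 h. The 16 h and fed libraries did not differ beyond counting error, nor did 4 h and 24 h. Its largest log2 difference from fed was -0.35 (-0.42 to -0.29) at 8 h, which was -0.59 at matched depth. The 4 h and 24 h differences, -0.25 and -0.25, were -0.54 and -0.57 there.

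Summed over all hepatocytes, the 2 hormone receptors were both highest at 4 h and lowest at 8 h, an order that did not hold at matched depth. Esr1, the estrogen receptor (chr10:4611593-5005614 on the plus strand), stood at 40.3 CPM (38.2 to 42.4) in the fed library, 52.6 CPM (50.4 to 54.8) at 4 h, 22.2 CPM (20.6 to 23.8) at 8 h, 28.3 CPM (26.5 to 30.2) at 16 h and 37.7 CPM (35.6 to 39.9) at 24 h. The fed and 24 h libraries, which share the clock hour, did not differ beyond counting error, with a log2 difference of -0.10 (-0.21 to 0.02), but the difference was -0.38 at matched depth. Esr1 at 8 h stood at log2 -0.86 (-0.99 to -0.73) against fed and at -1.25 (-1.37 to -1.13) against the 4 h library, and the second difference passed 2-fold but was -0.78 at matched depth. Thrb, the thyroid hormone receptor beta (chr14:17660261-18038090 on the plus strand), stood at 79.8 CPM (76.9 to 82.8) in the fed library, 97.2 CPM (94.3 to 100.2) at 4 h, 61.7 CPM (59.0 to 64.4) at 8 h, 91.3 CPM (88.1 to 94.6) at 16 h and 67.7 CPM (64.9 to 70.6) at 24 h. Its log2 differences from fed lay between -0.37 at 8 h and 0.28 at 4 h, and the latter was 0.01 at matched depth. Its 24 h difference, -0.24, was -0.52 at matched depth and -0.60 with 0 to 30% mitochondrial UMIs. At 16 h it was 0.19, and 0.27 at matched depth, so that Thrb was highest at 16 h and lowest at 24 h in those cells. For Esr1 the 4 h difference from fed, 0.38 (0.29 to 0.48), was -0.03 at matched depth, and the 16 h one, -0.51, was -0.29. Esr1 was then not above fed in any fasted library, and lowest at 8 h with -0.81.

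Esrra and Nr5a2, the receptors tied to mitochondrial and to bile acid genes, did not reach 2-fold in any library. Esrra (chr19:6910977-6921813 on the minus strand) stood at 41.8 CPM (39.6 to 44.0) in the fed library, 27.7 CPM (26.2 to 29.3) at 4 h, 44.5 CPM (42.2 to 46.8) at 8 h, 25.6 CPM (23.9 to 27.3) at 16 h and 38.7 CPM (36.5 to 40.9) at 24 h. It was low at 4 and 16 h, which did not differ beyond counting error, and high when fed and at 8 h, which did not differ either. The log2 difference from fed was -0.59 (-0.70 to -0.48) at 4 h and -0.71 (-0.83 to -0.59) at 16 h, and -0.90 and -0.80 at matched depth. At 24 h it was -0.11, and -0.44 at matched depth. Nr5a2 (chr1:136842571-136960448 on the minus strand) stood at 81.4 CPM (78.4 to 84.4) in the fed library, 89.1 CPM (86.3 to 91.9) at 4 h, 83.2 CPM (80.1 to 86.3) at 8 h, 110.3 CPM (107 to 114) at 16 h and 84.7 CPM (81.5 to 87.9) at 24 h. Only the 16 h library stood clearly above the rest, with 0.44 (0.37 to 0.51) against fed and 0.48 at matched depth, and next came the 4 h library. The 24 h and 8 h libraries did not differ beyond counting error, nor did 8 h and fed. The 24 h difference of Nr5a2, 0.06, was -0.30 at matched depth. Genes annotated on the opposite strand overlap Nr1i3, Hnf4a, Esrra, Nr2f2, Nr2f6 and Thrb in GENCODE M21, and the sources used here do not state whether strand was used in counting.

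Counted against the fed library, few of the 10 receptors were at least 2-fold apart, in shares near those of all genes with 10 CPM or more in either library. At 4 h 1 receptor was higher (Nr1i2) and 0 were lower, beside 3.91% higher and 5.76% lower of 7280 genes (9.67% in either direction). At 8 h 1 was higher (Nr1i2) and 1 lower (Nr2f2), beside 5.83% and 11.3% of 7364 genes (17.1%). At 16 h 1 was higher (Nr2f2) and 0 lower, beside 2.89% and 3.43% of 7328 genes (6.32%). At 24 h 2 were higher (Nr1i3 and Nr1i2) and 0 lower, beside 4.95% and 8.06% of 7373 genes (13%). The median log2 ratio of the 10 was 0.21, -0.11, 0.09 and 0.19 in time order, beside -0.08, -0.08, -0.02 and -0.06 over all those genes. TMM scaling moved the all-gene median to 0.06 at 4 h and 0.10 at 8 h, so that ratios under it stand higher throughout. All 4 comparisons share the fed library.

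**Figure D3:**
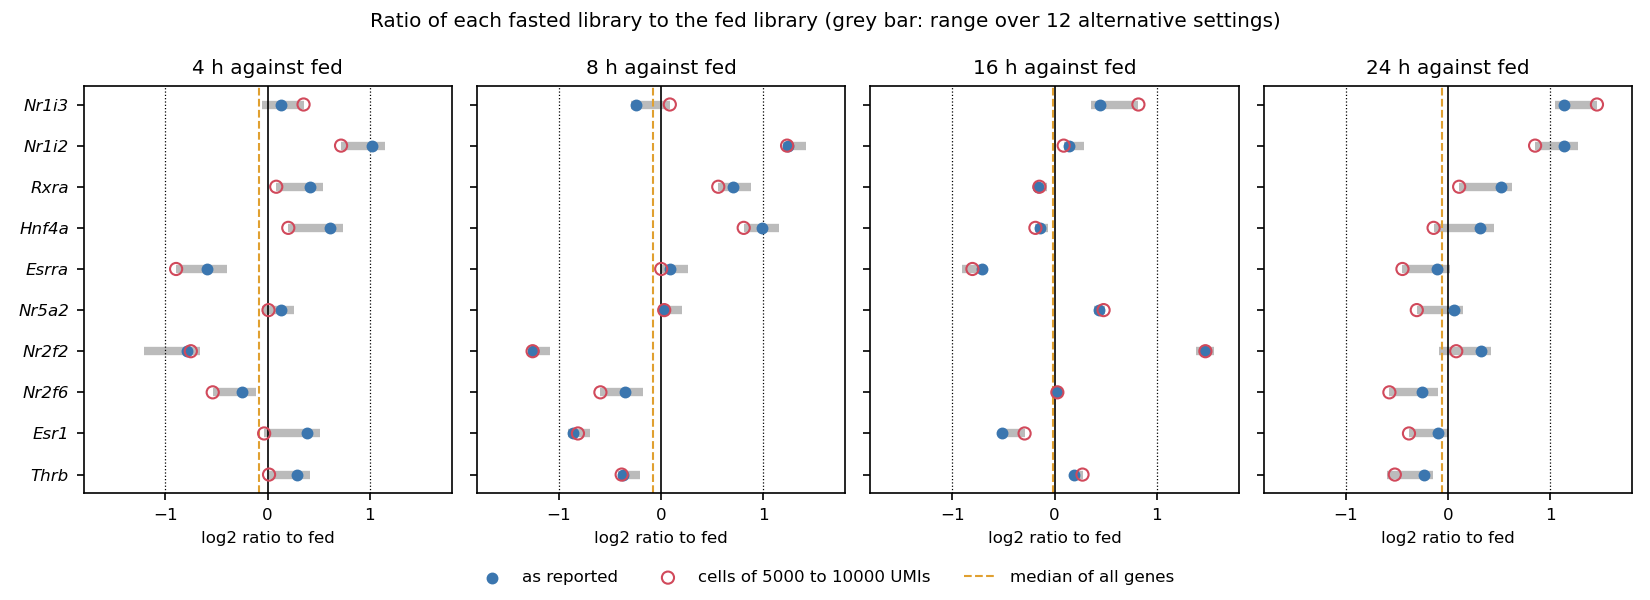
Log2 ratio of each receptor in the 4 fasted libraries to the fed library (filled points), with the range over 12 alternative settings (grey bars), the value in cells of 5000 to 10000 nuclear-encoded UMIs (open circles) and the median of all genes over all hepatocytes (dashed line). Dotted lines mark 2-fold. Nr2f2 at 8 and 16 h, Nr1i2 at 8 h and Nr1i3 at 24 h lie beyond 2-fold with both sets of cells.

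Against the library before, 1 receptor was lower and 0 higher at 8 h (Esr1), 2 were lower and 1 higher at 16 h (Nr1i2, Hnf4a and Nr2f2), and 1 was lower and 0 higher at 24 h (Nr2f2). Of all genes 1.1% were higher and 2.27% lower at 8 h (3.37% of 7091 in either direction), 10.6% and 7.25% at 16 h (17.8% of 7364), and 4.93% and 4.92% at 24 h (9.84% of 7283). The members' median was -0.10, 0.37 and 0.43, beside -0.02, 0.10 and -0.06 over all genes. Between 8 and 16 h Nr2f2 was 6.60-fold higher, a log2 difference of 2.72 (2.62 to 2.83), and 2.73 at matched depth. Over the same step the log2 ratio was -1.13 (-1.16 to -1.09) for Hnf4a and -1.10 (-1.20 to -0.99) for Nr1i2, and at matched depth -0.99 and -1.14, which left Hnf4a just short of 2-fold. From 16 to 24 h the log2 ratio of Nr2f2 was -1.15 (-1.22 to -1.07). Nr1i2 was higher over that step by 0.98 (0.88 to 1.09), just under 2-fold, and passed it with TMM or median-of-ratios scaling but was 0.76 at matched depth.

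Among 39 other nuclear receptors, 16 to 18 had 10 CPM or more in a comparison. At 4 h 2 of 16 were at least 2-fold higher than fed and 1 lower, at 8 h 3 and 2 of 16, at 16 h 4 and 1 of 18, and at 24 h 2 and 0 of 17. The shares of all genes were 3.91% and 5.76%, 5.83% and 11.3%, 2.89% and 3.43%, and 4.95% and 8.06% in the same order. The receptors' median log2 ratio was 0.11, 0.15, 0.44 and 0.10. Nr2c2, an orphan receptor, was among the higher ones at 4, 8 and 16 h, and Thra, the second thyroid hormone receptor, at 8 and 24 h, when Thrb was below fed. Ppara, the fatty acid sensor that pairs with RXRA, went from 58.7 to 146 CPM, log2 1.31 at 24 h, and from 58.7 to 96.1 CPM, log2 0.71 at 16 h. The clock repressor Nr1d1 went from 13.4 to 3.24 CPM, log2 -2.05 at 8 h and, the other way, to 125 CPM at 16 h, and Nr4a1, an immediate-early receptor, from 1.05 to 38.3 CPM, log2 5.18 at 16 h. Nr0b2 (SHP), a corepressor that binds HNF4A and NR5A2, went from 32.3 to 69.8 CPM, log2 1.11 at 16 h. Nr1h4, the bile acid receptor and RXRA partner, stayed within -0.42 to 0.09, the oxysterol receptor Nr1h3 within -0.33 to 0.61, and the glucocorticoid receptor Nr3c1 within -0.76 to 0.04. Of 19 coregulators, 18 were measured, with medians between 0.08 and 0.17. Ppargc1a, the coactivator of ESRRA and HNF4A, passed 2-fold at 4 h, from 25.2 to 58.2 CPM, log2 1.21 at 4 h.

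Known targets of the 10 receptors did not move as 1 group. Of 52 listed targets and RXRA partners, 44 or 45 were measured, and 5 were higher and 3 lower than fed at 4 h, 6 and 5 at 8 h, 3 and 4 at 16 h, and 8 and 4 at 24 h. In either direction 9.67%, 17.1%, 6.32% and 13% of all genes passed at these times. The targets' median log2 ratios were 0.02, 0.04, -0.22 and 0.19. Among 12 or 13 measured targets of CAR and PXR, 2 and 0 passed at 4 h, 2 and 2 at 8 h, 0 and 1 at 16 h, and 2 and 1 at 24 h. Cyp2b10, the classic CAR target, went from 6.24 to 46.4 CPM, log2 2.90 at 4 h and to 49.5 CPM at 8 h, but stood at 6.87 CPM at 16 h and 6.34 CPM at 24 h. At 8 h Abcc3, an export pump, and Alas1, the first enzyme of heme synthesis, were lower, at log2 -1.77 and -1.87. Por, the reductase that feeds electrons to P450 enzymes, went from 161 to 739.9 CPM, log2 2.20 at 8 h and to 557 CPM at 24 h. At 24 h, where Nr1i3 and Nr1i2 were both above 2-fold, Cyp2c29 was lower, from 834 to 116 CPM, log2 -2.85 at 24 h, and Cyp2b9 higher, from 0.114 to 14.7 CPM, log2 7.01 at 24 h, with a counting interval of 5.65 to 8.89 on the log2 scale. Of the 5 thyroid hormone targets, 1 was higher and 2 lower at 4, 8 and 24 h, and 1 and 1 at 16 h. Thrsp, a lipogenic gene, was lower at all 4 times, down to 137 CPM at 16 h from 3656 CPM. Me1, the malic enzyme that supplies NADPH, stood at 452 CPM when fed and was lower at 4, 8 and 24 h, with 224, 177 and 144 CPM. Klf9, a transcription factor, was higher at all 4 times, with log2 differences of 1.53 to 2.07. Among the 10 HNF4A targets, Cyp8b1 was higher at 8 h and Apoa4 at 24 h, and 1 was lower at 16 h. Of the 7 listed NR5A2 targets 2 were higher and 0 lower at 4 h, 3 and 0 at 8 h, 2 and 1 at 16 h, and 3 and 1 at 24 h. The NR5A2 target Abcg8, a subunit of the sterol exporter, was higher at all 4 times, up to log2 1.81 at 24 h. Cyp7a1, the rate-limiting enzyme of bile acid synthesis and another NR5A2 target, was lower at 16 h (-1.45) and 24 h (-1.06). The ERRA list held 7 measured genes, of which Vegfa was lower at 4 and 8 h and the others stayed within 2-fold. These lists were chosen with results of these data known and any link of a target's level to that of its receptor was not tested.

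Along the lobule, Nr1i3 was the member with a steep grade. Within each library, hepatocytes were ranked by the log2 ratio of Cyp2f2, a portal gene, to Cyp2e1, a central gene, and split into 3 equal sets, called portal, middle and central cells. These sets are ranges of expression and not positions measured in tissue, and no member was used to form them. An alternative axis used 12 portal and 14 central landmark genes, among them Cyp2f2 and Cyp2e1. It placed 49.4% of fed portal cells in the portal set again, and 56.6%, 51.1%, 54.4% and 42.8% of fasted ones in time order. For central cells the shares were 74.2% when fed and 92.3%, 80.5%, 88.9% and 53.3% in the fasted libraries. In edgeR's quasi-likelihood test of central against portal sums with library as a block, 1 of the 10 receptors was higher centrally and 2 were higher portally at an adjusted p under 0.05. Of all 11269 genes tested, 6.76% were higher centrally and 6.54% portally. The median log2 difference was -0.03 over the members and -0.0028 over all genes. The 5 libraries serve as replicates although they differ in hours without food. With no library block all 3 calls were lost (adjusted p of 0.9998 by edgeR), at log2 differences of 0.84 for Nr1i3, -0.40 for Esrra and -0.42 for Esr1.

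Nr1i3 stood in portal and central cells at 66.5 and 150.3 CPM when fed, 73.0 and 174 CPM at 4 h, 55.0 and 137 CPM at 8 h, 78.8 and 219 CPM at 16 h, 203 and 231 CPM at 24 h. It was higher centrally in 5 of 5 libraries, by a log2 ratio of 1.18 (1.05 to 1.30) in the fed, 1.26 (1.15 to 1.36) in the 4 h, 1.32 (1.18 to 1.46) in the 8 h, 1.47 (1.36 to 1.59) in the 16 h and 0.19 (0.10 to 0.27) in the 24 h library, and by 1.08 ± 0.51 (SD, n = 5) on average. The edgeR log2 difference was 0.99 with an adjusted p of 0.00134, and 1.24 without the 24 h library. The 24 h library stood apart from the other 4. Relative to fed, its Nr1i3 was higher by log2 1.61 in portal cells and by 0.62 in central cells. The axis itself was weak in that library: Cyp2e1 in its central cells stood at 1302 CPM against 4133 to 7874 CPM in the other 4, and Glul, a central marker not used for the ranking, at 58.8 CPM in portal and 57.1 CPM in central cells. How far the flatter grade of Nr1i3 at 24 h followed from the weaker axis was not tested. Split into 5 equal sets, Nr1i3 in the fed library was flat over the 4 sets nearest the portal end, at 65.8 to 76.1 CPM, and stood at 207 CPM in the most central one. That shape was not shared by the fasted libraries. Their set next to the most central one stood above the most portal one at 4 h (118 against 73.5 CPM), 8 h (80.9 against 51.7 CPM) and 16 h (138 against 74.1 CPM). At 24 h it stood below it (180 against 205 CPM).

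**Figure D4:**
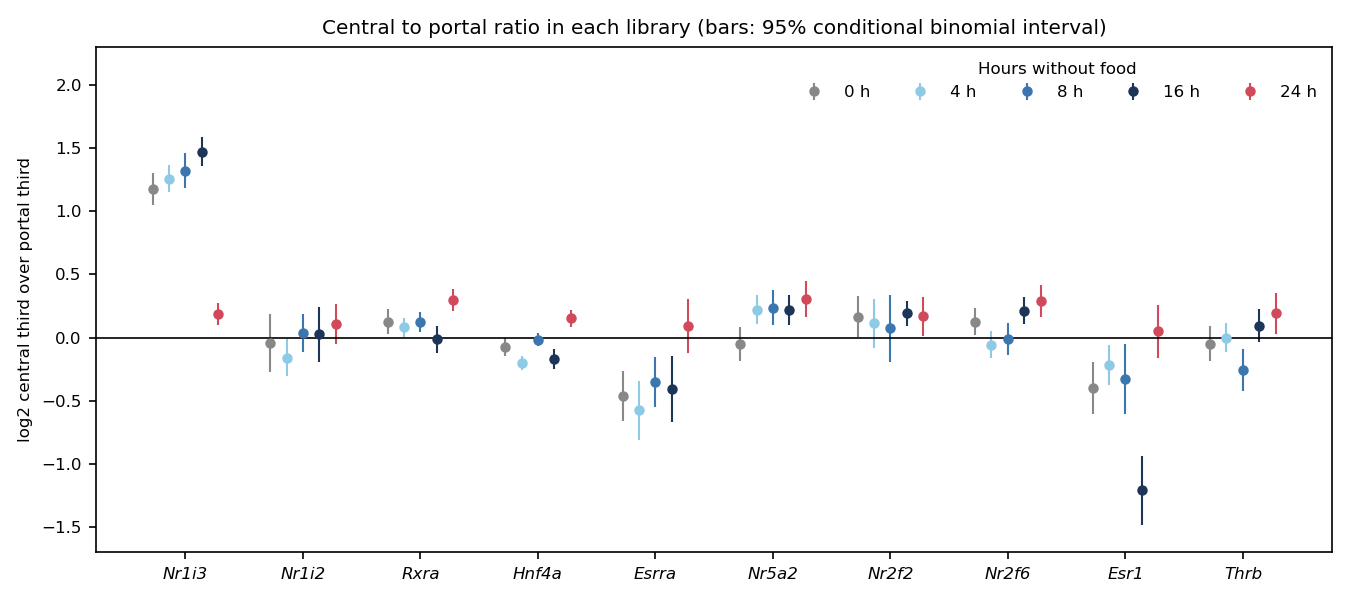
Log2 ratio of central to portal cells for each receptor in each library, with 95% conditional binomial intervals. Each point is 1 library, coloured by hours without food. Nr1i3 lies between 0.19 and 1.47, and the other 9 receptors lie below 0.31 in every library.

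Esrra and Esr1 were higher in portal cells. Esrra stood in portal and central cells at 47.6 and 34.5 CPM when fed, 30.2 and 20.3 CPM at 4 h, 48.9 and 38.4 CPM at 8 h, 27.1 and 20.5 CPM at 16 h, 35.6 and 38.0 CPM at 24 h. It was higher portally in 4 of 5 libraries, with log2 ratios of -0.46 (-0.66 to -0.27) in the fed, -0.57 (-0.81 to -0.34) in the 4 h, -0.35 (-0.55 to -0.15) in the 8 h, -0.41 (-0.67 to -0.15) in the 16 h and 0.09 (-0.12 to 0.31) in the 24 h library, the last of which spans 0. The edgeR log2 difference was -0.42 with an adjusted p of 0.00547 over 5 libraries, and the call was lost, at -0.26 and an adjusted p of 0.342 by edgeR, when cells were thinned to 1000 UMIs. Esr1 stood in portal and central cells at 41.6 and 31.6 CPM when fed, 54.2 and 46.8 CPM at 4 h, 24.4 and 19.4 CPM at 8 h, 34.9 and 15.1 CPM at 16 h, 37.4 and 38.7 CPM at 24 h. It was higher portally in 4 of 5 libraries, with log2 ratios of -0.40 (-0.60 to -0.19) in the fed, -0.21 (-0.37 to -0.05) in the 4 h, -0.33 (-0.61 to -0.05) in the 8 h, -1.21 (-1.48 to -0.93) in the 16 h and 0.05 (-0.16 to 0.26) in the 24 h library. The steepest was at 16 h, where Esr1 in central cells was -1.06 from fed on the log2 scale and in portal cells -0.25. In the most central of 5 sets it stood at 10.6 CPM at 16 h, beside 33.5 CPM in the most portal one. The edgeR log2 difference of Esr1 was -0.47 with an adjusted p of 0.0292. That call did not hold by edgeR without the fed (-0.47, adjusted p of 0.0802), the 4 h (-0.52, 0.0652) or the 8 h library (-0.49, 0.0803) or in thinned cells (-0.48, 0.0742), where the difference was as large. Without the 16 h library the difference was -0.30 and the call held (adjusted p of 0.0269 by edgeR).

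**Figure D5:**
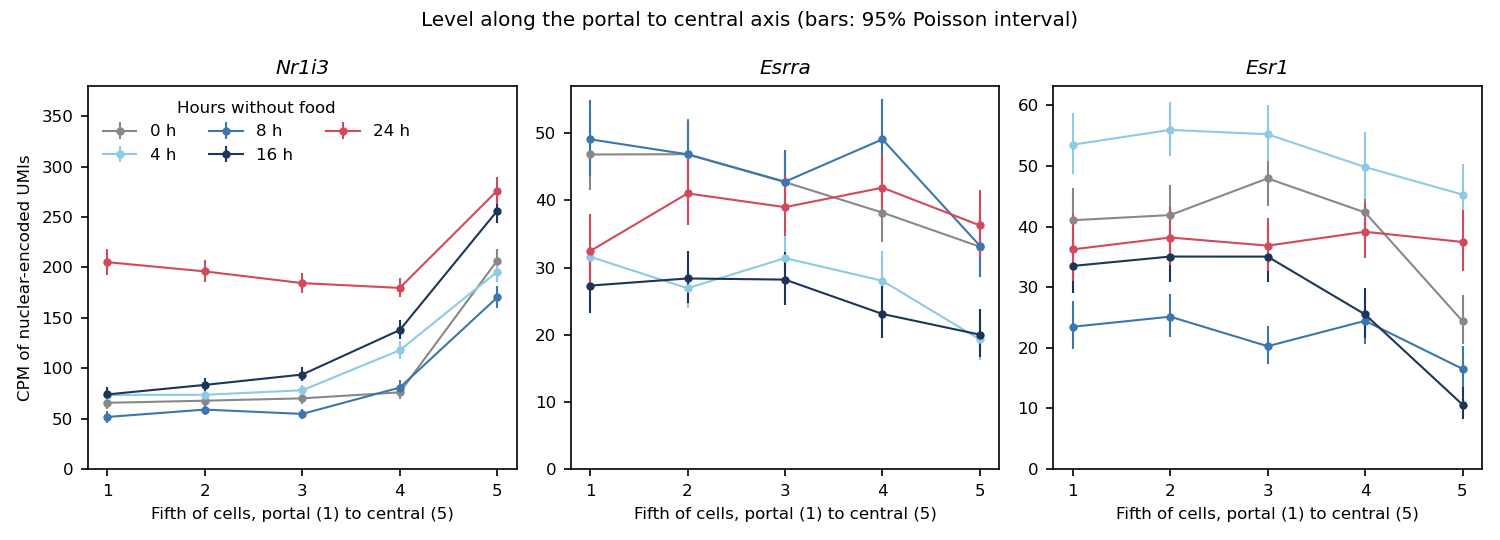
Level of Nr1i3, Esrra and Esr1 over 5 equal sets of cells from the portal (1) to the central (5) end of the axis, in CPM of nuclear-encoded UMIs, 1 line per library with 95% Poisson intervals. Nr1i3 is highest in the most central set of every library, and Esr1 at 16 h is lowest there, with 10.6 CPM.

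The other 7 receptors had no call along the axis, although Hnf4a gained one with no cluster left out (-0.29, adjusted p of 0.0308 by edgeR) and Nr1i2 on an axis of 12 portal and 14 central landmark genes (-0.18, adjusted p of 0.0317 by edgeR). By edgeR their log2 differences were -0.14 for Hnf4a (adjusted p of 0.177), 0.11 for Nr5a2 (0.259), -0.09 for Nr1i2 (0.336), -0.08 for Thrb (0.404), 0.07 for Nr2f2 (0.421), 0.04 for Rxra (0.685) and 0.03 for Nr2f6 (0.787). Per library, Nr2f2 was slightly higher centrally in 5 of 5, by 0.14 ± 0.05 (SD, n = 5), while the TMM-scaled edgeR value was smaller and not past the threshold. Its log2 difference between 16 h and fed was 1.45 in portal, 1.49 in middle and 1.47 in central cells. Nr1i2 likewise was above fed at 8 h in all 3 sets, by 1.27, 1.13 and 1.35. Nr5a2 was higher centrally in 4 of 5 libraries, by up to 0.31. Central cells had fewer UMIs than portal cells in the fed, 4, 8 and 16 h libraries (medians of 11800 against 18235.5 at 4 h) and more at 24 h (13615.5 against 10753). At matched depth the edgeR values were -0.16 for Hnf4a, 0.15 for Nr5a2, -0.11 for Nr1i2 and -0.02 for Thrb. Those of Nr2f2, Rxra and Nr2f6 were 0.0063, 0.0048 and -0.0007. In thinned cells the 7 values were -0.17, -0.05, -0.20, -0.12, 0.02, -0.13 and 0.08 in the same order. None was a call in either setting. The part of depth in the small ratios was not tested beyond these values.

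Of 24 other nuclear receptors tested along the axis, 4 were higher centrally and 3 portally by edgeR at an adjusted p under 0.05, and DESeq2 called 4 and 2. The counts are small, and the genes named for them were chosen after their values were seen, as was Cyp3a11. Among the central ones were Nr1h3 (log2 0.30), and Esrrg and Pparg, which stood under 6 CPM in central cells. The portal ones were Nr0b2 (-0.55), Rora (-0.23) and Nr4a1 (-0.96). Of 18 coregulators 0 were central (1 by edgeR and 0 by DESeq2 at an unadjusted p under 0.05) and 2 were portal, Ppargc1a (-0.50) and Ppargc1b (-0.36), coactivators of ESRRA. DESeq2 called 1 portal coregulator. Of 16 CAR and PXR targets, 7 were higher centrally and 0 portally (1 portally at an unadjusted p under 0.05 by edgeR as by DESeq2), beside 6.76% and 6.54% of all genes, and DESeq2 called 6 and 0. Examples were Cyp2c29 at log2 5.40, Cyp2b10 at 2.44, Abcc3 at 0.55 and Por at 0.49, while Cyp3a11, the main PXR target, was at 0.24 and did not pass (adjusted p of 0.224 by edgeR). The median of the CAR and PXR targets was 0.27. Of 10 HNF4A targets 1 was central and 4 portal, with a median of -0.19, and of 7 NR5A2 targets 4 were central and 2 portal, with a median of 0.27. DESeq2 called 0 central and 4 portal HNF4A targets, and 2 central and 2 portal NR5A2 targets. The all-gene median was -0.0028.

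Over the 15 sums of 5 libraries and 3 sets of cells, the receptors differed in which genes had the most similar course, by Pearson's r of log2(CPM + 1) among 6940 genes with a mean of 10 CPM or more. The points share libraries, depth and the axis, so these values are descriptions. Closest to Nr1i3 were Cdk6 (r = 0.94), Entpd5 (r = 0.92) and Ilvbl (r = 0.92), and closest to Nr1i2 were Rnf149 (r = 0.99), Wbp1l (r = 0.99) and Gm16573 (r = 0.99). Rxra was closest to Eef2 (r = 0.99), Gfer (r = 0.99) and Stard10 (r = 0.99), and Hnf4a to Gstp1 (r = 0.99), Mpnd (r = 0.99) and Eif4ebp3 (r = 0.99). For Nr2f2 they were Il15ra (r = 0.98), Znrf2 (r = 0.97) and Prox1 (r = 0.97), of which Prox1 is a homeobox factor of hepatocytes. Nr2f6 was closest to Hypk (r = 0.94), Nmd3 (r = 0.94) and Wdr1 (r = 0.94), Nr5a2 to Dnmt3a (r = 0.93), Washc5 (r = 0.92) and Phyh (r = 0.92), and Thrb to Lap3 (r = 0.97), Usp53 (r = 0.95) and Vcpip1 (r = 0.92). Esrra was closest to Plec (r = 0.97), Sart1 (r = 0.96) and Sdhb (r = 0.95), of which Sdhb, a subunit of mitochondrial complex II, stands on the list of ERRA targets. Esr1 had no gene as close, with Mindy2 (r = 0.86), Ablim1 (r = 0.85) and Sdhaf3 (r = 0.83). Within the 10, the highest values were 0.93 for Nr1i2 with Rxra, 0.91 for Rxra with Hnf4a and 0.86 for Nr1i2 with Hnf4a, and the lowest was -0.88 for Hnf4a with Nr2f2, over n = 15 sums each.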

How the data were processed

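Single-cell libraries of liver hepatocytes were prepared with the 10x Genomics 3' v3 kit, 1 per time, per the labels' protocols. The deposited values are raw counts of UMIs for each gene in each barcode, made with Cell Ranger 6.0.1 on mm10, per the submitters' processing notes; settings and annotation are not given in the sources used here. Of columns holding values of samples, 0 stayed out of use.

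Barcodes with at least 1000 UMIs, 500 genes and 2 to 30% mitochondrial UMIs were clustered (2000 variable genes, 30 components, Leiden resolution 0.6, leidenalg 0.10.2, scikit-learn 1.9.0, python 3.11.15), which gave 19 clusters. The 14 hepatocyte-like clusters, mostly of 1 library each, were summed. Left out were endothelial-like and Kupffer-like clusters and 3 unnamed clusters of shallow cells, which carried the 7 hepatocyte markers as well. Doublets were not removed.

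CPM used nuclear-encoded UMIs. A gene was called against another library at 2-fold with 10 CPM or more in either. Central and portal sets were compared with edgeR 4.0.16 (TMM, filterByExpr, library block, Benjamini-Hochberg adjustment) in R 4.3.3, with DESeq2 1.42.0 as an alternative. The procedures were tested on simulated data. Of 32285 gene IDs, 99.6% were found in GENCODE M21. The 10 receptors and the lists were chosen with earlier results of these data known. Genes named beside the receptors were list members past 2-fold (at most 3 per direction and time), 5 preset receptors (Ppara, Nr1h4, Nr1h3, Nr3c1 and Nr0b2) and, for each receptor, the 3 genes with the highest correlation. Some listed genes are not reported here. All RefSeq windows were matched by symbol, 10 of 10 receptors.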

Additional observations from a re-analysis of the deposited data

Results flagged for a closer look

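Along the axis, 2 receptors had counting intervals on opposite sides of 0 in different libraries. Hnf4a was higher in portal cells in the fed library (log2 central minus portal of -0.0732), at 4 h (-0.20) and at 16 h (-0.17), and higher in central cells at 24 h (0.15). Thrb was higher in portal cells at 8 h (-0.25) and in central cells at 24 h (0.19). With 1 library per time the difference between times was not tested. At 24 h central cells had more UMIs than portal cells, in the other libraries fewer, and the portal to central axis was weakest at 24 h. The part of either in these values was not tested.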

How the results depend on the processing

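The number of receptors past 2-fold against fed, 1 at 4 h as reported, was 0 with all UMIs or without genes above 1% of UMIs in the denominator, 2 with 2 to 15% mitochondrial UMIs, 0 in cells of 5000 to 10000 UMIs and 4 at a 1.5-fold threshold. The 8 h count of 2 became 5 and the 16 h count of 1 became 2 at 1.5-fold. The 24 h count of 2 became 1 with 0 to 30% mitochondrial UMIs and 1 in cells of 5000 to 10000 UMIs. Against the library before, the 8 h count of 1 became 0 with 2 to 15% mitochondrial UMIs, 0 at matched depth and 3 at 1.5-fold, the 16 h count of 3 became 6 at 1.5-fold, and the 24 h count of 1 became 2 with TMM, median-of-ratios, 2 to 15% mitochondrial UMIs or the mean over cells, and 5 at 1.5-fold. The matched-depth cells and the counting of shallow clusters were chosen after seeing the data.

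Along the axis, the counts of 1 central and 2 portal receptors became 0 and 0 with no library block (1 and 0 at an unadjusted p under 0.05 by edgeR), and the portal count was 0 in thinned cells (2 at an unadjusted p under 0.05 by edgeR). With no library block the differences were 0.84 for Nr1i3, -0.40 for Esrra and -0.42 for Esr1. DESeq2 gave 1 and 2. Leaving out 1 library gave portal counts of 1 to 2. The other 109 counts, between libraries and along the axis, stayed within 1.5 times. Differences without a call changed sign for Rxra (-0.10 with no cluster left out, -0.0236 with 2 to 15% mitochondrial UMIs, -0.13 in thinned cells), Nr5a2 (-0.0235 with no cluster left out, -0.0524 thinned) and Nr2f6 (-0.0454 with 2 to 15% mitochondrial UMIs, -0.0007 at matched depth). The cause of these was not tested. No paired analysis was possible because each time had 1 library, as far as comparisons between times go; central and portal cells were paired within libraries. Limits: 1 library per time, unequal depth, clusters specific to libraries, doublets left in and free RNA.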
